A study of Mus musculus with 8 samples.

Results

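The genes described here were the replication-dependent histone genes of the mouse, taken as every protein-coding gene of the mm10 GENCODE annotation whose symbol starts with Hist1h, Hist2h, Hist3h or Hist4h. There were 67 of them among 21827 protein-coding genes. By protein they comprised 6 H1, 18 H2A, 18 H2B, 12 H3 and 13 H4 genes, and by place 54 in the Hist1 cluster on chromosome 13, 10 in Hist2 on chromosome 3, 2 in Hist3 on chromosome 11 and 1, Hist4h4, on chromosome 6. Every group used nuclei of FFPE spleen (fixed in formalin and kept in paraffin) from C57BL/6J mice, whose open chromatin was cut by the Tn5 transposase in an ATAC-Seq assay. The cut DNA was purified after reverse crosslinking (+RV), a treatment that undoes formaldehyde bonds, or without that treatment (−RV), and in the bulk assay the material was divided between both after cutting. The bulk assay gave 2 technical replicates for each condition, and each replicate has its own peak list (47755 and 47864 peaks for +RV, 32288 and 32736 for −RV). Split-pool single-cell ATAC-Seq was deposited as 1 pooled fragment set per condition, with 13703580 nuclear fragments from 18620 barcodes for +RV and 1592372 from 2406 barcodes for −RV, and 2 barcodes occurred in both sets.

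Replication-dependent histone genes supply the histones that package newly copied DNA, and they are transcribed almost only in S phase. H2A, H2B, H3 and H4 form the nucleosome core, while H1 binds the linker DNA between nucleosomes. Most are short, intron-free genes in dense clusters, their mRNAs end in a stem-loop instead of a poly(A) tail, and many H2A and H2B genes lie head to head and share a promoter. The mouse spleen holds mostly resting lymphocytes, next to dividing erythroid precursors in the red pulp.

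Promoters of 62 of the 67 genes were found in RefSeq (GRCm38.p6, 250 bases before to 50 after the start site). Of these, 4 are printed as single examples, and they do not stand for their classes. Capitals mark CCAAT (bound by NF-Y), TATAAA (the TATA box) and ATTTGCAT (the octamer bound by Oct factors), each on either strand. Positions of the printed promoters were chr13:23683910-23684209 for Hist1h2ac (minus strand), chr13:23530794-23531093 for Hist1h4h, chr13:23738557-23738856 for Hist1h1c and chr13:23695561-23695860 for Hist1h1t (plus strand). By the mean of the +RV and −RV single-cell levels, Hist1h2ac belongs to the most open H2A and H2B pair, and Hist1h4h and Hist1h1c were the most open H4 and H1 genes, and Hist1h1t encodes a linker histone of the testis.
Hist1h2ac: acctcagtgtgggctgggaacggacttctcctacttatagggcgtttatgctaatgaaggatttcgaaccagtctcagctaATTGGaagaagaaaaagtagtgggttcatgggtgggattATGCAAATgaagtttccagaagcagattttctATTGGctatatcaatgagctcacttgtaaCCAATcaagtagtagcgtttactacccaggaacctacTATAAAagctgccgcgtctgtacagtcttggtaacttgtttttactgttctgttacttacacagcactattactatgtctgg
Hist1h4h: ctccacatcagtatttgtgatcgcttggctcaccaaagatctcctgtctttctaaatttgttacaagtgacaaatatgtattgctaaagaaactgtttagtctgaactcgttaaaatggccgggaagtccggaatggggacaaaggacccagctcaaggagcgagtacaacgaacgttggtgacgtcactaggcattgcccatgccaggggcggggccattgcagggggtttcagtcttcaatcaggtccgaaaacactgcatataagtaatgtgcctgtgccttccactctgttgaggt
Hist1h1c: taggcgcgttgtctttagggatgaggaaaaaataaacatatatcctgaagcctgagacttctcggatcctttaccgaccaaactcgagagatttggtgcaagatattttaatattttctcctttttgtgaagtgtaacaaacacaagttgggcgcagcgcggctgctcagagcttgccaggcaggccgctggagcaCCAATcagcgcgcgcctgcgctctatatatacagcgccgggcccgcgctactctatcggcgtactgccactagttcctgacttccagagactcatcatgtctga
Hist1h1t: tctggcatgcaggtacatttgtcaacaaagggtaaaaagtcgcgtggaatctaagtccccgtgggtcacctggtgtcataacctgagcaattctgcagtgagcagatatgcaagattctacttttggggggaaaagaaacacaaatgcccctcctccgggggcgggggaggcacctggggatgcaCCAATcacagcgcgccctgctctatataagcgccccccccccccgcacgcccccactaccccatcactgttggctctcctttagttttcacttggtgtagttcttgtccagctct

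CCAAT was present in 53 of the 62 histone promoters (85.5%), against 37.4% of all 32817 RefSeq promoters of the same length. All 6 H1, 18 H2A, 16 H2B and 10 H3 promoters held it, but only 3 of 12 H4 promoters did. TATAAA was found in 35 of 62 (56.5%, against 13.6% of all promoters) and ATTTGCAT in 13 of 62 (21%, against 1.74%). By class, TATAAA was in 4 of 6 H1, 11 of 18 H2A, 8 of 16 H2B, 4 of 10 H3 and 8 of 12 H4 promoters. The printed H4 promoter, of Hist1h4h, was not among these 8. The octamer matches were in 7 of 18 H2A and 6 of 16 H2B promoters, and in none of the H1, H3 and H4 promoters. These matches describe the letters in the window and do not show binding. Head-to-head pairs share part of their bases, so matches of both genes can be the same letters.

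Each start site was given a promoter window that reached 1000 bp upstream and 200 bp downstream. The 67 genes had 71 start sites, whose windows joined into 41 separate stretches, and 46 genes shared a stretch with at least 1 other member. In 13 pairs, 12 of them an H2A with an H2B gene, the genes lay head to head with start sites 176 to 660 bp apart (median 268 bp). Values of such neighbours are largely the same fragments and are no independent measurements.

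In bulk ATAC-Seq the same 39 histone genes (58.2%) had a promoter peak in all 4 libraries, and the other 28 (41.8%) had none in any library. No histone gene was called in 1, 2 or 3 libraries. Of all protein-coding genes, 47.7% had a peak in all 4 libraries, 43.5% in none and 8.86% in 1 to 3. The calls in both libraries of a condition therefore numbered 39 for +RV and 39 for −RV (58.2% each), against 53.6% and 47.7% of all genes. No histone gene was called only in both +RV libraries or only in both −RV libraries, where the shares of all genes were 3.49% and 0.0137%. Each library had 39 called members, so that the mean number per library differed by 0 between +RV and −RV (exact two-sided permutation test over the 4 libraries, p = 1.00, smallest p that 2 against 2 libraries allow 0.333).

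The 39 called promoters carried 30 distinct peaks in each library, because 9 peaks spanned at least 2 members. Fold is the deposited pile-up at a peak summit over the local background of its own library. Its median over the members was 5.20 and 5.17 in the +RV libraries and 5.27 and 5.43 in the −RV libraries, and in each library it lay below the median over all genes with a peak (7.34 and 7.38 for +RV, 6.88 and 6.71 for −RV). The peaks were 660 and 638 bp wide at the median in +RV and 496 and 481 bp in −RV, again below all genes (987 and 989 bp for +RV, 731 and 752 bp for −RV). Both sets of library medians were thus larger in +RV without overlap, and this difference was not tested. Widths of single genes overlapped between conditions, and Hist1h2af had 266 and 324 bp in +RV and 332 and 368 bp in −RV. Relative to the start site, median summits lay at -83 and -92 bp in +RV and at -112 and -92 bp in −RV.

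**Figure D1:**
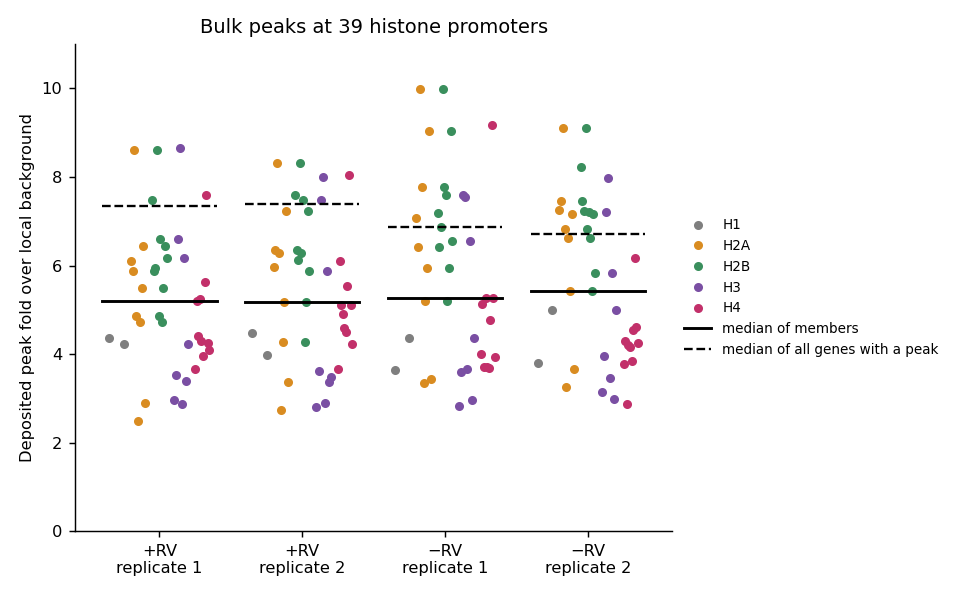
Deposited peak fold (y axis) of the 39 histone promoters with a bulk peak in each of the 4 libraries (x axis), 1 point per gene and coloured by histone class; solid lines are medians of the members and dashed lines medians of all genes with a promoter peak. The medians of the members, 5.17 to 5.43, lie below the dashed lines in every library.

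H2A and H2B genes had the highest folds. The 10 called H2B genes had median folds of 6.06 and 6.33 in +RV and 7.04 and 7.19 in −RV, and the 9 H2A genes 5.49 and 5.97 in +RV and 6.42 and 6.82 in −RV. The 10 H4 genes stood at 4.35 and 5.0 in +RV and 4.39 and 4.23 in −RV, the 8 H3 genes at 3.87 and 3.54 in +RV and 4.02 and 4.47 in −RV, and the 2 H1 genes at 4.29 and 4.23 in +RV and 4.01 and 4.39 in −RV. In every library the H2B median lay above the H2A median and the H2A median above the H4 median, and the genes of these classes overlapped. Head-to-head H2A and H2B genes under the same peak have the same fold, so their medians are not independent. The H3 medians include Hist1h3c and Hist1h3f, whose folds are those of peaks shared with the H2B genes Hist1h2bb and Hist1h2bh. Hist1h2ah and Hist1h2bk, a head-to-head pair under 1 peak, had folds of 8.61 and 8.31 in +RV and 9.98 and 9.11 in −RV, the highest of all members in the −RV libraries.

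The H3 gene Hist1h3e reached folds of 8.65 and 8.00 in +RV and 7.55 and 7.97 in −RV. At the other end, the H2A gene Hist1h2af had 2.50 and 2.74 in +RV and 3.36 and 3.25 in −RV, and the H3 gene Hist1h3h 2.96 and 2.80 in +RV and 2.82 and 3.14 in −RV. Across the 39 genes the folds of the replicates followed each other (Pearson r of log2 fold 0.949 between the +RV libraries and 0.917 between the −RV libraries, over genes that share peaks and libraries).

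In the single-cell sets the promoters were counted by fragment midpoint and given as counts per nuclear fragment on the usual CPM scale, with exact Poisson intervals of 95% that cover counting error only. The 41 stretches together held 7863 +RV fragments, or 574 CPM (561 to 587), and 1010 −RV fragments, or 634 CPM (596 to 675). The level was thus lower in +RV, at a ratio of 0.905 (0.847 to 0.967), a log2 ratio of -0.14. As a share of the fragments in all promoters, the members made up 0.403% in +RV and 0.505% in −RV. Since each condition is 1 pooled set, the difference has no replicate check. In barcodes of at least 1000 and 1500 fragments the log2 ratio was -0.07 and -0.12, with intervals that included 0, so that the lower level in +RV was not resolved there. The median log2 ratio over the genes (pseudocount 1 CPM) was -0.01, next to 0.16 over all genes.

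Histone promoters were among the more open promoters of the spleen sets. The median gene had 12.1 CPM in +RV and 13.2 CPM in −RV, next to 3.21 and 2.51 CPM over all protein-coding genes. The median member stood at percentile 82.8 of all genes by mean CPM, and 57 of 67 lay above the median of all genes. Among the 63 members with any fragment, levels in +RV and −RV went together (Pearson r 0.900 of log2 values, Spearman rho 0.756, across genes that share windows).

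**Figure D2:**
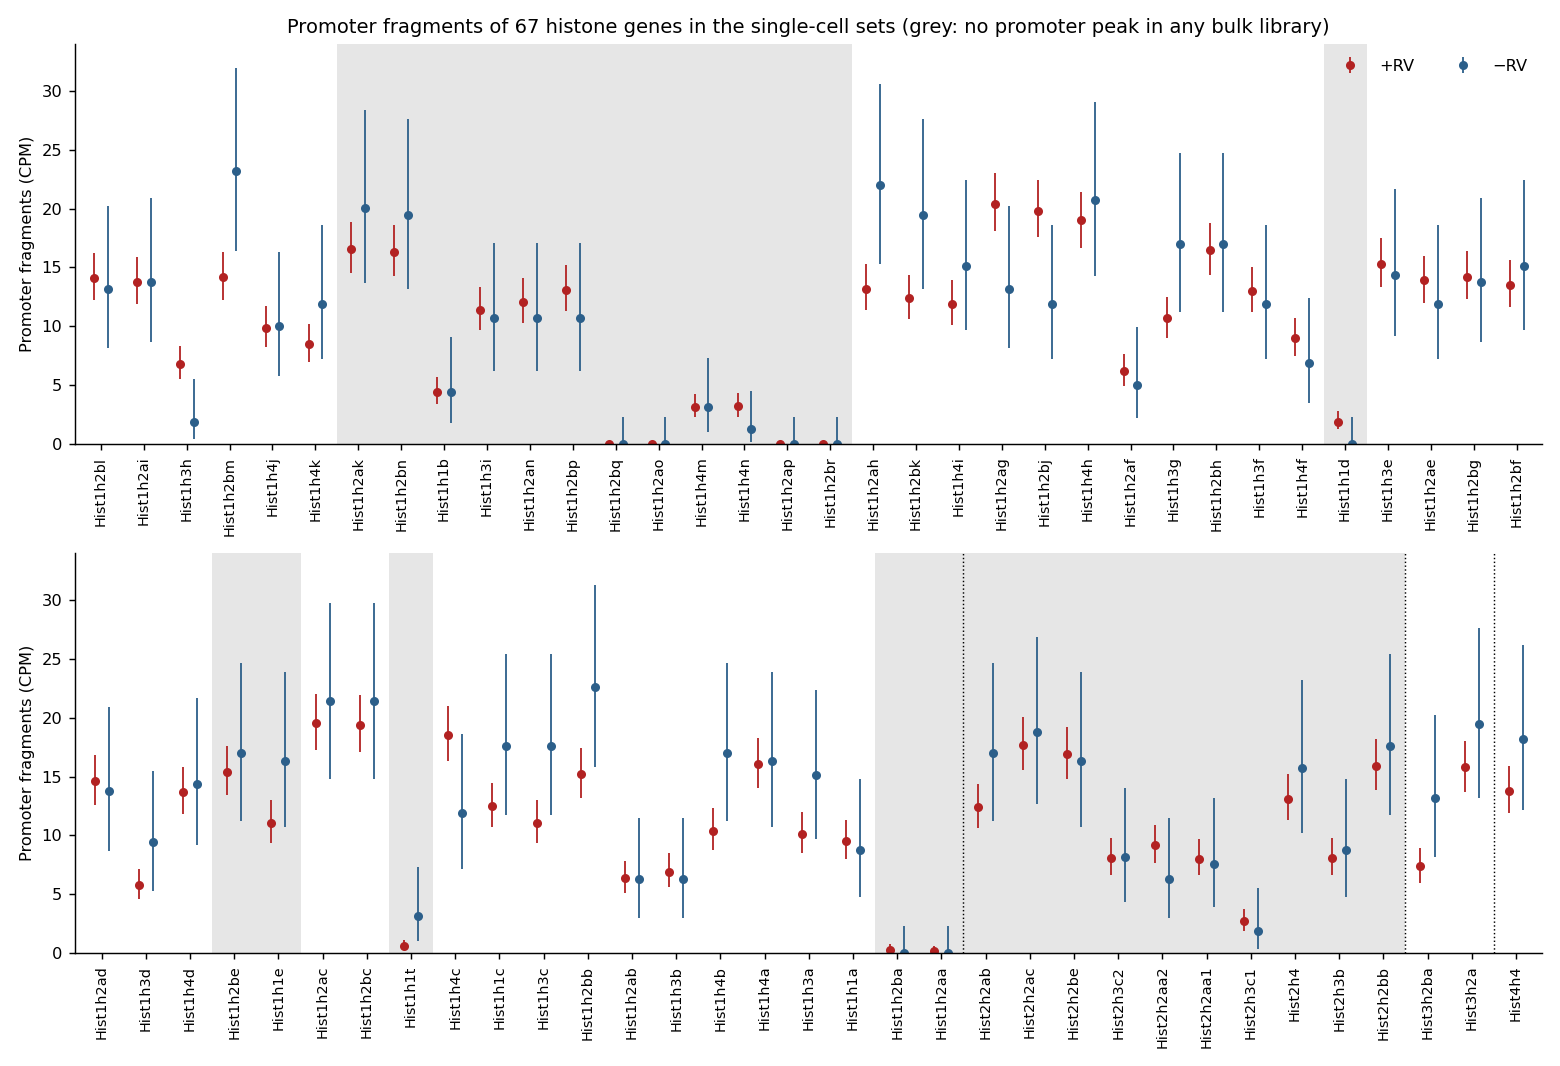
Promoter CPM (y axis) of each of the 67 histone genes in the +RV (red) and −RV (blue) single-cell sets, in genomic order within Hist1, Hist2, Hist3 and Hist4 (dotted lines part the clusters); bars are exact Poisson intervals of 95% and grey marks genes with no promoter peak in any bulk library. Grey stretches contain genes as open as their neighbours, such as Hist1h2ak at 16.6 CPM in +RV and 20.1 CPM in −RV.

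Among the linker histones, Hist1h1c was the most open, with 12.5 CPM (10.7 to 14.5) in +RV and 17.6 CPM (11.7 to 25.4) in −RV. Hist1h1e followed with 11.1 CPM in +RV and 16.3 CPM in −RV, and Hist1h1a with 9.56 CPM in +RV and 8.79 CPM in −RV. Hist1h1b was lower, at 4.45 CPM in +RV and 4.4 CPM in −RV. The intervals of each of these 4 genes overlapped between the sets, and only Hist1h1c and Hist1h1a had bulk peaks.

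Hist1h1d had 26 fragments in +RV (1.90 CPM) and 0 in −RV, which allows up to 1.88 CPM, and no bulk peak. The +RV interval of 1.24 to 2.78 CPM includes that limit, so no difference between the sets was resolved. Its GENCODE start site lies 1770 bp upstream of the RefSeq start, and around the RefSeq start a peak was called in all 4 libraries, with folds of 3.40 and 3.55 in +RV and 2.51 and 2.81 in −RV. The window of the RefSeq start held 7.08 CPM (5.74 to 8.64) in +RV and 5.02 CPM (2.17 to 9.90) in −RV. It was the 1 member of the 62 with a RefSeq promoter whose bulk call changed with the other start site, and calls with that start added numbered 40 in each condition.

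Among the H2A and H2B genes, Hist1h2ac, whose promoter is printed above, had 19.6 CPM (17.3 to 22.0) in +RV and 21.4 CPM (14.8 to 29.8) in −RV, and its head-to-head partner Hist1h2bc 19.4 CPM in +RV and 21.4 CPM in −RV. Hist2h2ac had 17.7 CPM in +RV and 18.8 CPM in −RV, close to Hist1h2ak with 16.6 CPM in +RV and 20.1 CPM in −RV. Hist1h2bb had 15.2 CPM in +RV and 22.6 CPM in −RV, and Hist1h2bm 14.2 CPM in +RV and 23.2 CPM in −RV. In −RV the intervals of these 6 genes all overlapped. In +RV those of Hist1h2ac and Hist1h2bc lay above that of Hist1h2bm (12.2 to 16.3 CPM), and the order of the others is not resolved. Hist1h2ag, singled out after its values were seen, had the highest +RV level of all members, with 20.4 CPM (18.1 to 23.0) in +RV and 13.2 CPM (8.16 to 20.2) in −RV, and its head-to-head partner Hist1h2bj had 19.8 CPM in +RV and 11.9 CPM in −RV.

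The most open H3 genes were Hist1h3e with 15.3 CPM in +RV and 14.4 CPM in −RV, Hist1h3c with 11.1 CPM in +RV and 17.6 CPM in −RV, and Hist1h3g with 10.7 CPM in +RV and 17 CPM in −RV. Of the H4 genes, Hist1h4h had 19.0 CPM (16.7 to 21.4) in +RV and 20.7 CPM (14.3 to 29.1) in −RV, and Hist1h4a 16.1 CPM in +RV and 16.3 CPM in −RV. Hist4h4, the only member on chromosome 6, had 13.8 CPM in +RV and 18.2 CPM in −RV, with bulk folds of 3.67 and 3.67 in +RV and 4.0 and 3.77 in −RV. Hist1h4h had none of the 3 searched elements in its RefSeq promoter. Per kilobase of window, H2B promoters held 10.3 CPM in +RV and 11.6 CPM in −RV, H4 9.63 and 10.4 CPM, H2A 9.26 and 9.59 CPM, H3 7.63 and 8.55 CPM and H1 5.56 and 6.98 CPM.

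Testis histones were low in +RV. Hist1h2ba and Hist1h2aa, the H2B and H2A variants of male germ cells, are a head-to-head pair whose joined window held 4 +RV fragments (0.292 CPM) and 0 −RV fragments. Hist1h1t had 8 fragments in +RV (0.584 CPM) and 5 in −RV (3.14 CPM, next to the median of 2.51 CPM over all genes), a ratio of 0.186 (0.0536 to 0.722) that rests on these few fragments. None of the 3 had a bulk peak, although their windows were 100%, 99.3% and 89.2% unique in sequence for Hist1h1t, Hist1h2ba and Hist1h2aa. All 3 promoters held CCAAT, and both genes of the pair held the octamer as well.

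For 11 of 67 members the exact interval of the ratio between the sets excluded 1, namely 9 below it (13.4%, against 1.29% of all genes) and 2 above it (2.99%, against 4.22% of all genes). Since more fragments give narrower intervals, the counts were repeated among the more open genes, those averaging 10 CPM or more over the sets. There 8 of 43 members lay below 1 (18.6%, against 1.91% of 5825 genes) and 1 above it (2.33%, against 9.85%). The limit of 10 CPM was chosen after the values were seen. It averages the same sets that the ratio compares, so a gene can pass through its higher set alone. Hist3h2ba did so, with 7.37 CPM in +RV and 13.2 CPM in −RV. These shares are thus no separate support for the counts over all members. Besides Hist1h1t, those below 1 were Hist3h2ba (0.559, 0.347 to 0.942), Hist1h2ah (0.601), Hist1h2bm (0.609), Hist1h4b (0.615), Hist1h3g (0.628), Hist1h3c (0.631), Hist1h2bk (0.637) and Hist1h2bb (0.671, 0.470 to 0.985). Hist1h2ah with Hist1h2bk and Hist1h3c with Hist1h2bb share windows, so these 8 genes stand for 6 stretches. Above 1 were Hist1h3h (3.60, 1.2 to 17.8, on 93 +RV and 3 −RV fragments) and Hist1h2bj (1.66, 1.04 to 2.81). None of these genes changed its bulk call between conditions.

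By cluster, Hist1 promoters summed to 439 CPM in +RV and 482 CPM in −RV (ratio 0.912, 0.846 to 0.984) and Hist2 promoters to 97.7 CPM in +RV and 102 CPM in −RV (ratio 0.960, 0.815 to 1.14). The 2 Hist3 genes together had 23.1 CPM in +RV and 32.7 CPM in −RV, a ratio of 0.708 (0.527 to 0.969). Of these, Hist3h2ba had 7.37 CPM in +RV and 13.2 CPM in −RV with bulk folds of 7.48 and 7.59 in +RV and 7.19 and 8.22 in −RV, and Hist3h2a 15.8 CPM in +RV and 19.5 CPM in −RV. The intervals of all 4 cluster ratios overlapped, and a difference between clusters was not tested.

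The 28 members without a bulk peak fell into contiguous stretches. All 10 Hist2 genes lay in a peak-free span of 119 kb (chr3:96181421-96300682) and 12 Hist1 genes in a span of 101 kb (chr13:21750902-21852315). Hist1h2be and Hist1h1e lay in another of 85.4 kb (chr13:23598272-23683686), Hist1h2ba and Hist1h2aa in 1 of 245 kb, and Hist1h1t and Hist1h1d in shorter ones of 11.8 and 2.88 kb. These spans held no peak of any of the 4 lists. All 13 head-to-head pairs had the same call in both genes, but their windows overlap, so that 1 peak can call both.

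The single-cell sets showed fragments at many of these promoters. Members without a bulk peak summed to 182 CPM in +RV and 190 CPM in −RV (6.38 and 6.66 CPM per kb), next to 392 CPM in +RV and 444 CPM in −RV (10 and 11.3 CPM per kb) for those with peaks. Of the 43 members that averaged 10 CPM or more, 12 (27.9%) had no bulk peak, whereas 3.19% of 5825 such genes had none. In Hist2 these were Hist2h2ac, Hist2h2be with 16.9 CPM in +RV and 16.3 CPM in −RV, Hist2h2bb with 15.9 CPM in +RV and 17.6 CPM in −RV, Hist2h4 with 13.1 CPM in +RV and 15.7 CPM in −RV, and Hist2h2ab with 12.4 CPM in +RV and 17 CPM in −RV. The gene Bola1, which is no histone gene but lies in the same span, had 21.3 CPM in +RV and 22.6 CPM in −RV, also without a peak. In Hist1 they were Hist1h2ak and its partner Hist1h2bn, with 16.3 CPM in +RV and 19.5 CPM in −RV for the partner, then Hist1h2bp, Hist1h2an and Hist1h3i at 11.4 to 13.1 CPM in +RV and 10.7 CPM each in −RV, Hist1h2be and Hist1h1e.

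Density at the windows stood out from the DNA between genes in the called and the uncalled stretches alike. In the 51.3 kb from Hist2h2ab to Hist2h2bb, where no gene was called, member windows held 6.32-fold (+RV) and 5.57-fold (−RV) the fragments per kilobase of the rest of the stretch. In the 234 kb from Hist1h4h to Hist1h1a, where 25 of 29 genes were called, the values were 7.59-fold in +RV and 8.86-fold in −RV, and in the 122 kb from Hist1h2bl to Hist1h2br, with 6 of 18 called, 8.14-fold in +RV and 6.75-fold in −RV. The study's methods removed blacklisted regions from peak lists, and whether that emptied these spans was not tested.

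Many histone genes are near-copies of each other, so the repeats in each window were counted. The median window had 84.7% of its 50-base words once in the genome, and 8 members had under 10%. Hist1h2bq, Hist1h2ao, Hist1h2ap and Hist1h2br had 0% unique words, with a median of 2 copies per word, and 0 fragments in both sets, which allows up to 0.219 CPM in +RV and 1.88 CPM in −RV for what the authors' mapping kept. Whether reads from these promoters were lost in mapping was not tested. Hist1h4n (3.42% unique), Hist1h4m (4.17%), Hist2h3c1 (8.25%) and Hist2h3c2 (8.58%) had 3.21, 3.14, 2.70 and 8.10 CPM in +RV and 1.26, 3.14, 1.88 and 8.16 CPM in −RV. All 8 were among the members without a bulk peak. The 12 uncalled members with at least 10 CPM had 63.2% to 100% unique words (median 86.1%), next to a median of 85.4% for called members. The part of repeats in the missing peaks was not tested.

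**Figure D3:**
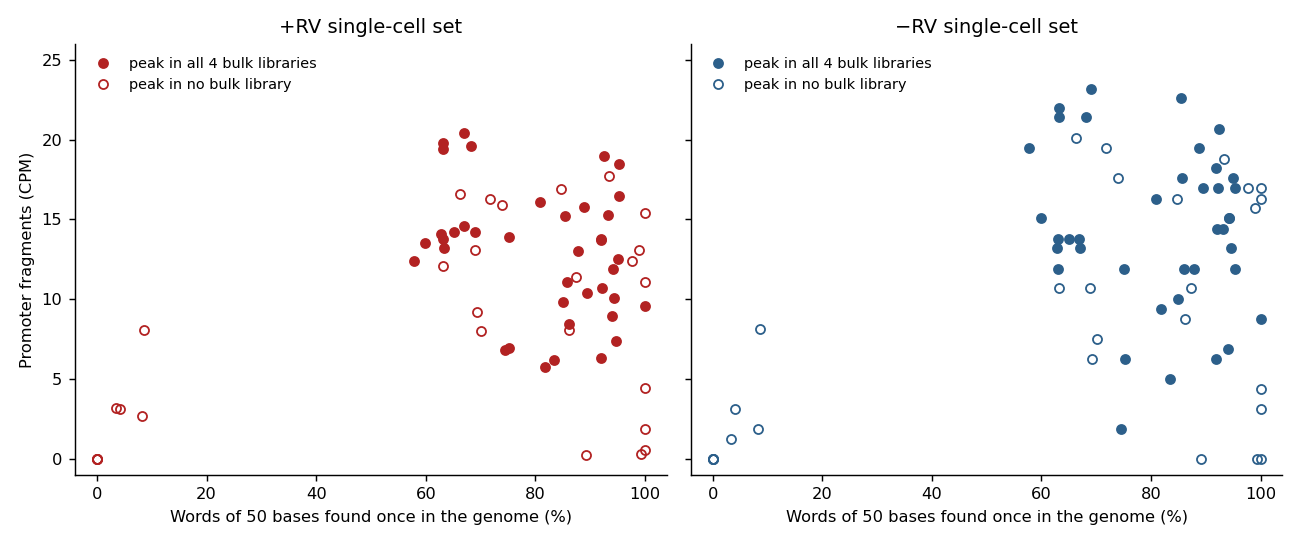
Promoter CPM (y axis) of the 67 histone genes against the share of 50-base words of the window that occur once in the genome (x axis, percent), for the +RV set (left) and the −RV set (right); filled points had a peak in all 4 bulk libraries and open points in none. The 8 genes under 10% lie at 8.10 CPM or less in +RV, while open points at 63.2% and more reach the range of filled ones.

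Fragments gathered just upstream of the start sites. Over all members the highest 50-bp bin in +RV was 100 to 50 bp upstream (1222 fragments, next to 1197 within 50 bp upstream). In −RV it was 150 to 100 bp upstream (180 fragments, next to 171 in the following bin). The shift between the sets was thus not resolved. The classes differed in where the highest bin lay. H2A and H2B genes had it 150 to 100 bp upstream in both sets, between the start sites of head-to-head pairs, whereas H1, H3 and H4 genes had it within 50 bp upstream. For H1 the highest bin held 75 +RV and 15 −RV fragments, next to 71 and 14 in a neighbouring bin, so its place was not resolved. The 200 bp upstream held 2.63 to 2.78 times the fragments of the 200 bp downstream in +RV and 3.54 to 3.87 times in −RV for H2A and H2B, but 1.39 times in +RV and 1.83 times in −RV for H4 and 1.10 times in +RV and 1.17 times in −RV for H1. H3 lay between, at 1.94 times in +RV and 2.36 times in −RV. The median share of unique words was 73.2% upstream and 40.8% downstream for H2A, 71.2% and 56.0% for H2B, 92.0% and 42.0% for H3, 96.0% and 65.0% for H4, and 100% on both sides for H1. Fragments between head-to-head start sites can count as upstream of both genes, so the H2A and H2B ratios are not independent. The part of this sharing and of the unique-word shares in the fragment ratios of the classes was not tested.

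**Figure D4:**
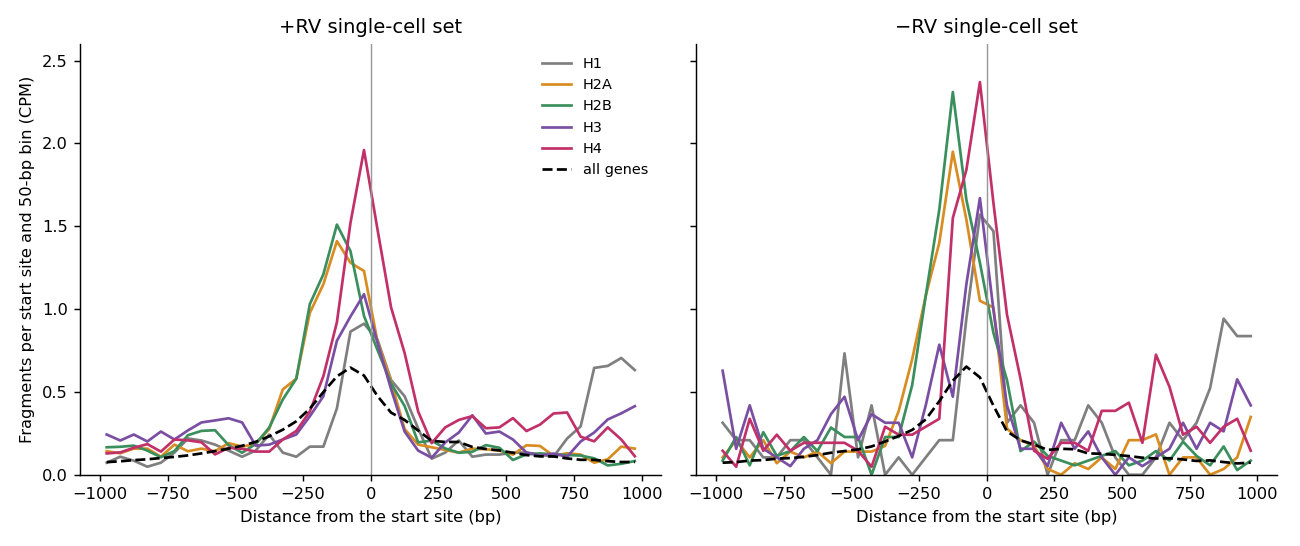
Fragments per start site and 50-bp bin (y axis, CPM) against the distance from the start site (x axis, bp, negative upstream) for the 5 histone classes (colours) and all protein-coding genes (dashed), in the +RV set (left) and the −RV set (right). H2A and H2B curves peak 150 to 100 bp upstream and H1, H3 and H4 curves within 50 bp upstream.

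Fragment length differed more between conditions than level did. Of the fragments at histone promoters, 32.7% (exact binomial interval 31.6 to 33.7%) exceeded 150 bp, just above the DNA of a nucleosome core, in +RV, against 6.73% (5.27 to 8.46%) in −RV. Over all promoters the shares were 28.5% in +RV and 4.30% in −RV, so that the members lay above the intervals of all promoters in both sets. Hist2 promoters had 37.0% in +RV and 8.02% in −RV, and Hist1 promoters 31.9% in +RV and 6.78% in −RV. By class the share ran from 27.3% for H1 to 35.2% for H2A in +RV, and from 4.59% for H3 to 8.73% for H2B in −RV. The −RV intervals of H3 (2.12 to 8.54%, on 9 long fragments) and H2B (6.15 to 11.9%) overlapped. Those of Hist2 (4.34 to 13.3%) and Hist1 (5.10 to 8.80%) in −RV did so too, so these −RV orders were not resolved. Histone promoter fragments had a median length of 107 bp with reverse crosslinking, against 75 bp without it. The authors cut read 1 to 75 bp, the same value as the −RV median, and the part of that step in the lengths was not tested.

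The sets allowed a reading by cell class. A barcode was put in a class when at least 2 of its fragments fell in the gene windows of 1 marker list and more than in any other list, which sorted 428 erythroid, 586 B cell, 411 T cell and 212 macrophage and monocyte barcodes in +RV and 43, 58, 41 and 20 in −RV. Most sat at the minimum of 2 (322 of 428 erythroid barcodes in +RV), and 91.2% of +RV and 93.3% of −RV barcodes had no class, so a class is a range of barcodes and not a sorted cell type. Marker genes kept out of the rule were highest in their own class for erythroid barcodes (470 CPM in +RV, against 75.3 to 134 CPM in the other classes and unsorted barcodes, and 719 CPM in −RV, against 36.3 to 191 CPM). Median fragments per +RV barcode were 858 in the erythroid class and 686 to 886 in the other 3. The other +RV checks were also highest in their own class. They stood at 739 CPM against 185 to 383 CPM for B cells and 376 against 130 to 207 CPM for T cells. For macrophages and monocytes the +RV check was 197 CPM (144 to 261) against 94.5 to 155 CPM. That interval overlaps the one in T cell barcodes (116 to 202 CPM), so this +RV class was not resolved by its check. The B cell check still stood at 379 CPM in +RV T cell barcodes and 347 CPM in +RV macrophage and monocyte barcodes, close to the 383 CPM of unsorted barcodes. In −RV the B cell and T cell checks were highest in their own class, at 792 CPM (545 to 1113) and 509 CPM (278 to 854, on 14 fragments). The −RV B cell interval overlaps that of T cell barcodes (174 to 668 CPM). The −RV T cell interval overlaps that of B cell barcodes (82.9 to 379 CPM). The −RV macrophage and monocyte check was not highest in its own class, at 147 CPM on 2 fragments, against 254 CPM on 7 fragments in T cell barcodes. That −RV class was thus not borne out by its check. No doublet caller was run.

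Histone promoters were more open in erythroid-class barcodes. They held 949 CPM (863 to 1040) there in +RV, against 570 CPM (509 to 637) in B cell, 534 CPM in T cell, 506 CPM in macrophage and monocyte, and 562 CPM in unsorted barcodes. In −RV the values were 1119 CPM (807 to 1513, 42 fragments) in erythroid and 630 CPM (590 to 672) in unsorted barcodes. B cell barcodes had 552 CPM (350 to 829, 23 fragments) and T cell barcodes 472 CPM (252 to 808, 13 fragments) in −RV. Macrophage and monocyte barcodes had 368 CPM (119 to 859, 5 fragments) in −RV. The −RV intervals of these sorted classes each overlap the erythroid interval, so the order was not resolved class by class. Erythroid-class over the other 3 classes, the ratio was 1.74 (1.54 to 1.96) in +RV and 2.26 (1.43 to 3.56) in −RV. With barcodes of at least 1000 fragments the −RV ratio was 1.48, with an interval that included 1. These intervals cover counting error within 1 pooled set, and barcodes are not replicates. The share of all fragments that lay in promoters was 15.4% in erythroid and 13.4% to 14.3% in the other +RV classes, and as a share of promoter fragments the members still had 0.617% (0.562 to 0.677%) in erythroid barcodes against 0.374% to 0.423% in the other 3.

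In +RV the difference was seen in both large clusters and in 4 of the 5 classes. In +RV the ratio was 1.78 (1.55 to 2.05) for Hist1 and 1.71 (1.27 to 2.28) for Hist2, and 1.74 both for members with a bulk peak and for those without. By class in +RV it was 1.98 for H4, 1.85 for H2B, 1.73 for H3 and 1.58 for H2A, all with intervals above 1, and 1.48 (0.871 to 2.47) for H1. In −RV it was 6.06 (1.80 to 26.1) for H4 and 2.69 (1.38 to 5.33) for H2B, the intervals for H1 and H2A included 1, and H3 stood at 0.735 (0.128 to 2.95) on 3 erythroid and 9 other fragments. Of the 43 members that averaged 10 CPM or more, 36 (83.7%) were higher in erythroid-class than in other-class +RV barcodes. The share of all such genes was 60.7%. For 11 members (25.6%, against 8.41%) the interval lay above 1. They included Hist1h2bn with 46.2 CPM in erythroid and 11.4 CPM in other barcodes (ratio 4.05, 1.95 to 8.75), Hist1h2bf with 33.6 and 8.78 CPM, and Hist1h4i with 27.3 and 7.90 CPM. Several of the 11 share stretches, such as Hist1h2bn with Hist1h2ak, so these genes are not independent. Counted by the 41 stretches, 33 were higher in erythroid-class barcodes, 7 lower and 1 equal in +RV. In −RV 25 stretches were higher, 7 lower and 9 equal.

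**Figure D5:**
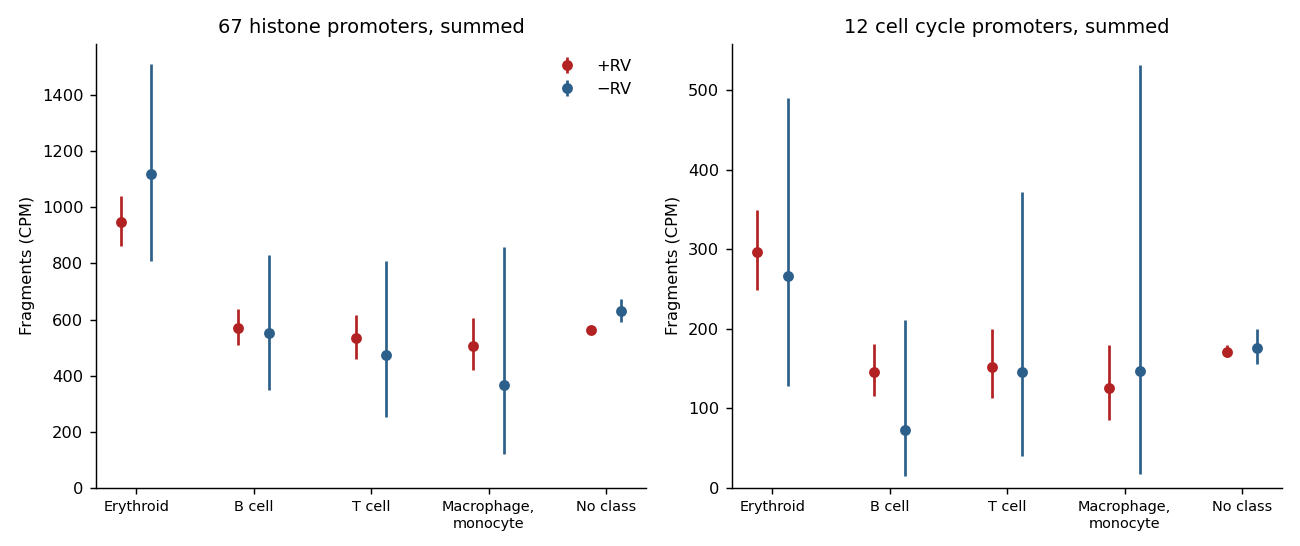
Summed CPM (y axis) of the 67 histone promoters (left) and of 12 cell cycle promoters (right) by barcode class (x axis) in the +RV (red) and −RV (blue) sets, with exact Poisson intervals of 95%. The erythroid class lies at 949 CPM in +RV and 1119 CPM in −RV on the left, above every other class. Its −RV interval overlaps those of the B cell, T cell, and macrophage and monocyte classes.

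Cell cycle promoters, a list that holds Mki67, Pcna and the Mcm helicase genes among 12, were higher in the same barcodes, at 296 CPM (249 to 349) in erythroid and 125 to 152 CPM in the other +RV classes (ratio 2.07, 1.64 to 2.61) and at a ratio of 2.45 (0.895 to 6.81) in −RV. In +RV the ratios of other lists were 1.26 (0.961 to 1.64) for variant histones, 1.19 (0.899 to 1.56) for histone chaperones and 1.25 (1.03 to 1.51) for regulators of histone genes, and differences between lists were not tested. The intervals of variant histones and chaperones overlap that of the histone promoters. All promoters together stood at 153660 CPM in erythroid and 137082 CPM in the other 3 classes.

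For genes that act on or beside the replication-dependent histones, bulk calls are read against the 53.6% (+RV) and 47.7% (−RV) of all genes with a peak in both libraries. Of 15 regulators, 14 had a peak in both libraries of each condition, among them Npat with 24.4 CPM in +RV and 21.4 CPM in −RV, the coactivator of histone transcription in S phase, Slbp with 20.7 CPM in +RV and 22.6 CPM in −RV, which binds the stem-loop of histone mRNAs, and Pou2f1 with 45.0 CPM in +RV and 37.1 CPM in −RV, the Oct factor of H2B promoters. The exception was Hinfp, the H4 promoter factor, with no peak in any library and 21.1 CPM in +RV and 23.2 CPM in −RV. All 8 histone chaperones were called in both conditions. Of 13 variant histone genes, 8 were called in +RV and 7 in −RV, near the shares of all genes. The variant H2afz had 39.8 CPM in +RV and 28.9 CPM in −RV, while H2afx, with 18.1 CPM in +RV and 22.6 CPM in −RV, had no peak. Of the 12 cell cycle genes, 11 were called in +RV and 10 in −RV.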

How the data were processed

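Peak lists of 4 bulk libraries and 2 pooled single-cell fragment sets, all on mm10, were used. For each bulk peak the authors deposited a score, the fold as a ratio over local background, and −log10 p and −log10 q values. The study's methods name MACS2 (q 0.01), removal of blacklisted regions, and BWA for single-cell reads, while the submitters' notes name Bowtie2 2.4, SAMtools 1.15, Picard 1.119 and SEACR 1.3. A minimum read length was set by the study to limit multi-mapping single-cell fragments, and no further rule for reads with several equal matches was found in its methods. The deposited fragments are other values, namely positions with a barcode, for barcodes that the authors selected on at least 500 fragments and on a minimum share of reads around start sites, which bears on every promoter level and share. No authors' comparison columns were present.

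Genes and start sites came from the basic set of GENCODE vM21. A gene was called when a peak overlapped a window by at least 1 bp. Fragments were counted by midpoint, once per stretch, and scaled to nuclear fragments (CPM). Intervals of 95% are exact Poisson, exact binomial or exact conditional, and a count of 0 allows up to 3 counts. They cover counting error only. Python 3.11.15, NumPy 2.4.6, pandas 2.3.3 and SciPy 1.17.1 were used, and counting and intervals were checked on simulated data. Each pooled set was assigned its condition by the abbreviation in its labels, and holds both labelled libraries without a mark that parts them. Named genes were the 3 highest and 2 lowest of each class by mean CPM, members without a bulk peak, testis genes, Hist3 and Hist4 genes, and members whose ratio interval excluded 1. Members, lists and tests were chosen with earlier results of these data known. Bulk p-values measure only the spread between technical libraries. Alternatives were other windows, start sites, peak and barcode limits, scalings, lengths, pseudocounts and left-out replicates.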

Additional observations from a re-analysis of the deposited data

How the results depend on the processing

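With other windows, a stricter peak limit, equal list lengths or RefSeq starts, 39 to 40 histone genes had a peak in both +RV libraries and 38 to 40 in both −RV libraries. The mean per library differed by 0.5 with the window of 500 bp up and 100 bp down (p = 1.00 in the exact permutation test) and by 0 otherwise. Without replicate 1 or 2 the counts were 39 for each condition, 0 in +RV alone, and the difference was 0. With the replicate block the difference was 0 (exact sign flip p = 1.00, smallest p 0.5). The pooled single-cell sets allow no pairing. The log2 ratio of the summed level was -0.07 in barcodes of at least 1000 fragments and -0.12 in those of at least 1500, both with intervals that included 0, which ended the call of a lower +RV level. It was -0.33 when scaled to promoter fragments and -0.51 with fragments of 50 to 100 bp, and the median log2 ratio over genes was -0.19 and -0.37 there. That median was 0.11 in barcodes of at least 1500 fragments and -0.11 in members with at least 80% unique words. The share over 150 bp in +RV was 35.3% in barcodes of at least 1500 fragments, 31.1% with the smaller window and 30.9% with at least 80% unique words, and in −RV it was 9.44% in barcodes of at least 1000 fragments. For the ratio of erythroid-class to other barcodes the values spanned 1.64 to 1.88 in +RV and 1.48 to 2.41 in −RV, where the lowest, in barcodes of at least 1000 fragments, had an interval that included 1. The RefSeq starts, the unique-word limit and the class settings were chosen after seeing the data. The causes were not tested. Depth limits the −RV set, where 3 fragments correspond to 1.88 CPM.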
